A study of Mus musculus with 8 samples.

Results

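The genes described here encode the cohesin complex and its main regulators in the mouse testis. They were taken by gene symbol from the expression table and comprised 10 of its 54532 genes. The 4 meiosis-specific members were *Rec8*, *Rad21l*, *Stag3* and *Smc1b*, and the 6 general members, which dividing somatic cells also use, were *Smc3*, *Rad21*, *Stag1*, *Wapl*, *Pds5b* and *Nipbl*.

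Cohesin is a ring built from an SMC1 and an SMC3 protein, closed by a kleisin and bound by a STAG protein, and it holds sister chromatids together and folds DNA into loops. In germ cells SMC1B, STAG3 and the kleisins REC8 and RAD21L stand in for SMC1A, STAG1 or STAG2, and RAD21, and these meiotic complexes form the core of the chromosome axes along which homologs pair and synapse. NIPBL, with its partner MAU2, loads cohesin onto DNA, WAPL releases it, and the PDS5 proteins act with WAPL in release and with the factors that make cohesion stable.

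RNA was sequenced from whole testes in 2 groups, *Sync-Spdya* fl/fl (the controls, 4 mice) and *Sync-Spdya* cKO (4 mice), each mouse giving 1 library. All 8 mice were C57BL/6J juveniles homozygous for a floxed *Spdya* allele. In all of them spermatogenesis had been synchronized with an inhibitor of retinoic acid (RA) synthesis followed by RA, and tamoxifen was given at RA7.5 and RA8.5 (days after the RA injection, as the sample labels give them; the study's methods give slightly earlier times), with harvest at RA11.5. The cKO mice also carried *Ddx4*-CreERT2, a tamoxifen-dependent recombinase restricted to germ cells, which removes an exon of *Spdya*, while the controls carried no Cre, so that loss of *Spdya* and the presence of active Cre cannot be told apart. SpdyA is a CDK activator found at meiotic telomeres. The question put to these genes was whether the RNA for the cohesin machinery differed between the groups, and whether the meiosis-specific members differed from the general ones. Values are FPKM as deposited, that is, fragments per kilobase of gene relative to a scaled size of the library. That size, recovered from the values, ran from 0.938 (control 1) to 1.05 (control 4) times the fragments on genes.

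The libraries held 13978342 to 19583091 fragments on genes. *Spdya* (chromosome 17) ranged from 19.7 to 23.8 FPKM in the controls and from 17.7 to 30.5 FPKM in the cKO libraries, so its level over the whole gene gave no check of the labels. Control 1 stood apart, with 0.464% of its fragments on mitochondrial genes against 2.20% to 3.74% in the other 7 libraries. The 9 of 10 listed pachytene spermatocyte markers in the table summed to 1316 to 2031 FPKM in the controls and 1096 to 1713 FPKM in the cKO libraries, with lower cKO means for 7 of the 9. The most abundant of them was *Ldhc*, with means of 523.6 and 313.0 FPKM. Without *Ldhc* the ranges were 954 to 1400 and 848 to 1325 FPKM. By contrast 5 of the 8 round spermatid markers, among them the protamine genes *Prm1* and *Prm2*, stayed below 1 FPKM in every library. The 9 Sertoli cell markers summed to 999.5 to 1343 FPKM in the controls and 1336 to 1579 FPKM in the cKO libraries, but most of that sum was *Clu* (means of 822.8 and 1056 FPKM), and without it the ranges were 281.7 to 402.5 and 320.7 to 391.1 FPKM. The 5 peritubular markers summed to 44.8 to 74.95 and 74.0 to 104.2 FPKM, and to 8.85 to 14.1 and 11.0 to 17.1 FPKM without *Acta2*. The 5 macrophage markers, each with a higher cKO mean, summed to 12.3 to 19.9 and 21.0 to 25.0 FPKM. *Ldhc*, *Clu* and *Acta2* were singled out after their values were seen. The cKO mean was also higher for 8 of 9 spermatogonia markers (sums of 210.0 to 307.2 and 281.8 to 292.3 FPKM), 5 of 6 Leydig markers and all 5 endothelial markers. By single-cell sequencing at a slightly later harvest, the study reported a lower share of spermatocytes and a higher share of spermatogonia in cKO testes. The part of these differences in the values below was not tested, and in whole testes fewer cells of a type and less RNA per cell cannot be told apart.

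RNA of all 10 members was detected in every library. *Stag3* was the most abundant, with a mean of 77.8 FPKM over the 8 libraries, above each of the other members in all 8. *Smc1b* (54.0 FPKM) and *Rad21* (53.3 FPKM) followed and could not be ordered, since *Smc1b* exceeded *Rad21* in 4 of 8 libraries. *Wapl* came next with 36.1 FPKM. *Smc3* (26.2 FPKM) and *Nipbl* (25.2 FPKM) could not be ordered either, with *Smc3* above in 4 of 8. *Nipbl* exceeded *Rec8* (20.8 FPKM) in 6 of 8, *Rec8* exceeded *Stag1* (17.3 FPKM) in 7 of 8, and *Stag1* exceeded *Pds5b* (15.2 FPKM) in 7 of 8. *Rad21l* was far below the rest at 2.19 FPKM. The gene length behind each FPKM equalled the merged exons of all annotated transcripts, for *Stag1* 11781 bases over 17 transcripts. The order of genes, and the ratios and shares between genes below, thus depend in part on the annotation. Among all genes tested *Stag3* stood at percentile 96.6 of the mean level and *Rad21l* at percentile 10.7, so the meiosis-specific members were at both ends of the cohesin range.

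**Figure D1:**
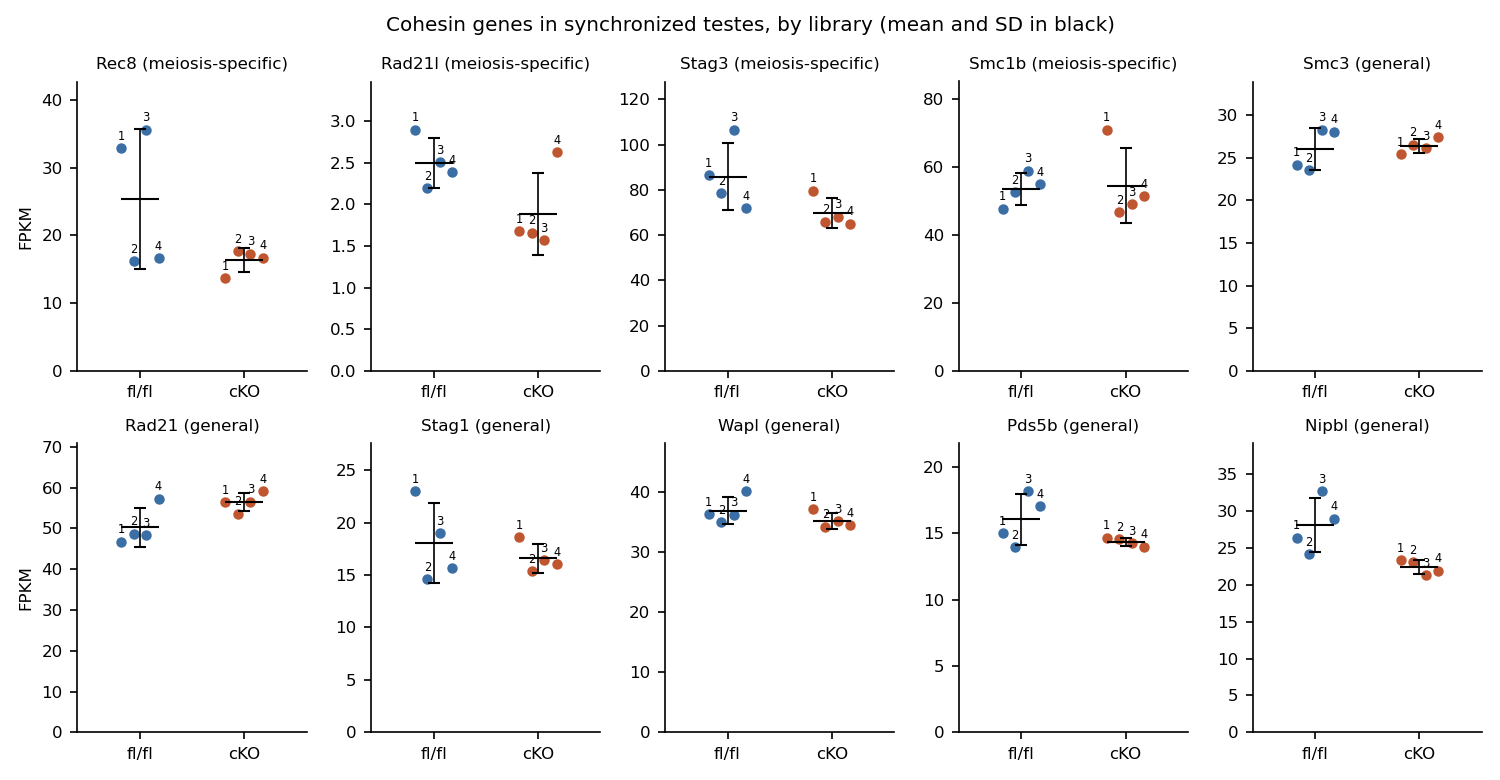
FPKM of each of the 10 cohesin genes in the 4 fl/fl (control) and 4 cKO libraries, with the replicate number above each point and the mean and SD in black; each panel starts at 0. Nipbl is the member whose groups do not overlap, and Rec8 is split within the controls, with replicates 1 and 3 at 32.9 and 35.6 FPKM and replicates 2 and 4 at 16.2 and 16.7 FPKM.

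In the comparison of the groups no cohesin gene was called differentially expressed (DE), which required a Benjamini-Hochberg adjusted p below 0.05 from limma on log2(FPKM + 0.1) together with a log2 fold change beyond 1 in either direction. On this scale the change of genes with low FPKM is understated. Over the 12141 protein-coding genes that averaged more than 1 FPKM in each group, 2 genes or 0.0165% were called, and the same 0.0165% reached the adjusted p alone. With the same filter and thresholds but another test (DESeq2), the study called more genes DE than the fit used here. All 10 members passed that filter, and their lowest limma adjusted p was 0.346. At an unadjusted p below 0.05, which 10.9% of all genes reached, 2 of the 10 members were found, *Nipbl* and *Rad21l*. Both were lower in the cKO libraries, where 5.0% of all genes were found, and none was higher, where 5.89% were. With voom on the fragments recovered from the FPKM values 0 members reached the adjusted p and 2 the unadjusted one, but these were *Nipbl* and *Stag3* (limma unadjusted p = 0.0491), while *Rad21l* did not (limma unadjusted p = 0.0801). The log2 fold change was below 0 for 7 of the 10 members, as it was for 48.0% of all genes. The median log2 fold change was -0.35 for the 4 meiosis-specific members and -0.08 for the 6 general members, beside 0.01 for all genes.

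**Figure D2:**
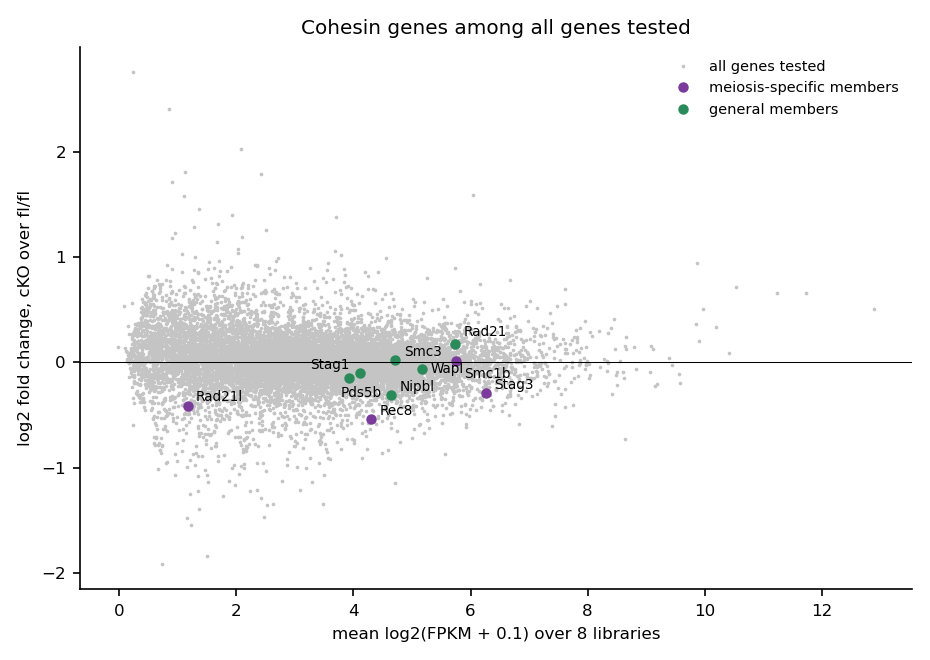
Log2 fold change (cKO over fl/fl) against the mean log2(FPKM + 0.1) over 8 libraries for all 12141 genes tested in grey, with the 4 meiosis-specific members in purple and the 6 general members in green. The members lie between -0.54 (Rec8) and 0.17 (Rad21), within the cloud of other genes at their levels.

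The kleisins close the ring. Among the 10 members *Rec8* and *Rad21l* ranged most widely, with the highest library 2.60 and 1.84 times the lowest, while *Rad21* ranged by 1.26 times. *Rec8* (ENSMUSG00000002324, chromosome 14 of GRCm38, 55618037 to 55625395), whose protein keeps sister chromatids joined until the meiotic divisions, had 32.9, 16.2, 35.6 and 16.7 FPKM in control replicates 1 to 4 and 13.7, 17.7, 17.3 and 16.7 FPKM in cKO replicates 1 to 4. Controls 1 and 3 were about level with each other and above all other libraries, while controls 2 and 4 lay inside the cKO range. The means were 25.3 ± 10.3 FPKM in the controls and 16.4 ± 1.80 FPKM in the cKO libraries (SD, n = 4 each). The log2 fold change was -0.54 (SE 0.26, 95% interval -1.12 to 0.03, limma adjusted p = 0.495). It was -0.38 without control 1 (limma unadjusted p = 0.149) and -0.35 without control 3 (limma unadjusted p = 0.183). Without control 2 it was -0.72 (limma unadjusted p = 0.0188), and without control 4 it was -0.71 (limma unadjusted p = 0.0196). Control 1 is the library with the low mitochondrial share. Control 3 had the highest sum of the 7 early prophase markers, 92.3 FPKM against 61.2 to 83.0 FPKM in the other libraries. Among these markers control 3 was the highest library only for *Stra8*, the gene for the RA-induced meiotic initiator, with 19.8 FPKM, and *Gm4969*, with 18.5 FPKM. *Meiob* was 14.9 FPKM in control 3, within a range of 13.7 to 38.5 FPKM over all libraries. Control 1 had 5.92 FPKM of *Stra8*, within the range of the remaining controls and the cKO libraries (2.03 to 12.9 FPKM). *Stra8*, *Gm4969* and *Meiob* were singled out after their values were seen, and their part in the *Rec8* values was not tested.

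*Rad21l* (ENSMUSG00000074704, chromosome 2, 151645404 to 151668533), the kleisin of early and mid prophase axes, had 2.90, 2.19, 2.51 and 2.39 FPKM in the controls and 1.68, 1.66, 1.57 and 2.63 FPKM in the cKO libraries. Of the cKO libraries 1 to 3 lay below every control, and cKO 4 lay above 3 of the 4 controls. The means were 2.50 ± 0.296 and 1.88 ± 0.497 FPKM (SD, n = 4 each), with a log2 fold change of -0.41 (SE 0.18, 95% interval -0.82 to -0.0045, limma unadjusted p = 0.0480, adjusted p = 0.454). An exact permutation test of the log2 values over the 70 assignments of the libraries gave p = 0.114 (two-sided). *Rad21l* rested on 44 to 74 fragments per library, a counting error of up to 15.1%, whereas each of the other members had at least 781. Its log2 fold change was -0.57 without cKO 4 (limma unadjusted p = 0.00499) and -0.34 without cKO 3 (limma unadjusted p = 0.128) or control 1 (limma unadjusted p = 0.103). Among the fits with a library left out, those without control 2 or cKO 4 gave an unadjusted p below 0.05, and the other 6 did not.

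*Rad21* (ENSMUSG00000022314, chromosome 15, 51962240 to 51991747), the kleisin of somatic cohesin, leaned the other way. It had 46.8, 48.7, 48.3 and 57.3 FPKM in the controls and 56.4, 53.6, 56.5 and 59.1 FPKM in the cKO libraries. Control 4 alone of the controls lay among the cKO libraries. The log2 fold change was 0.17 (SE 0.10, 95% interval -0.05 to 0.39, limma adjusted p = 0.593). It was between 0.14 without control 1 (limma unadjusted p = 0.171) and 0.23 without control 4 (limma unadjusted p = 0.0316). Of the summed kleisin FPKM, *Rec8* supplied 21.8% to 41.2% in the controls and 19.1% to 24.2% in the cKO libraries, while *Rad21* supplied 55.9% to 75.1% and 73.5% to 78.5%. *Rad21l* never exceeded 3.51%. *Rad21* RNA was 1.36 to 4.11 times that of *Rec8*, so the somatic kleisin gene was the more abundant in each of the 8 whole testes.

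**Figure D3:**
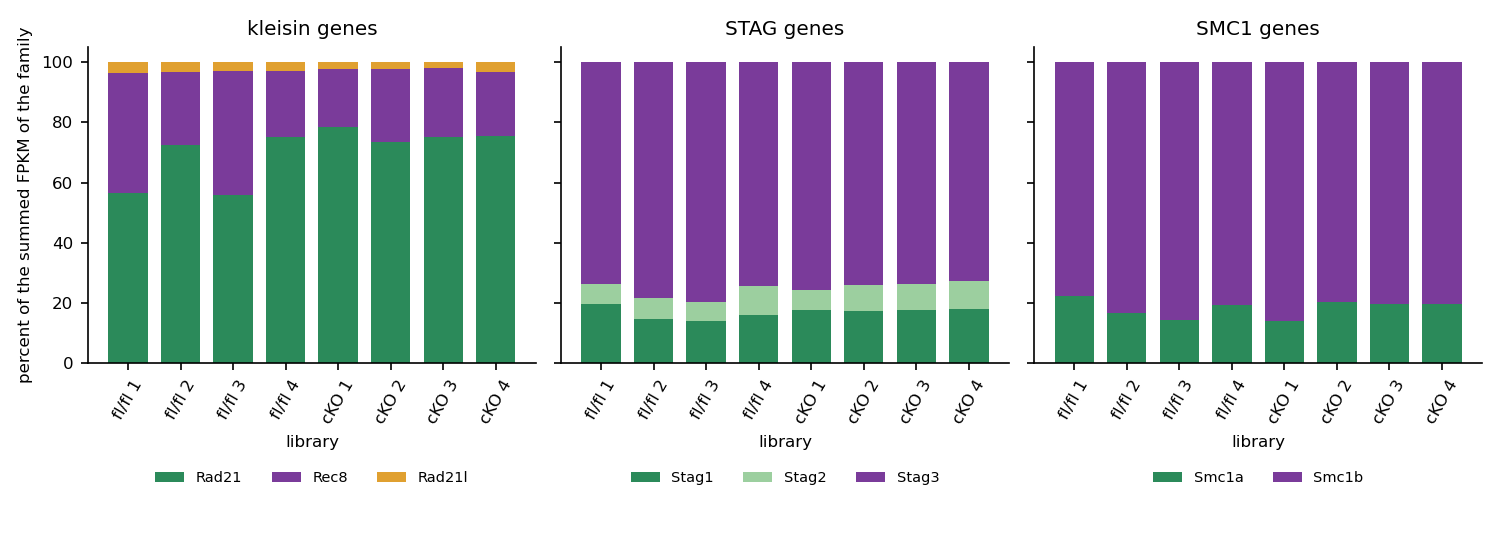
Share of the summed FPKM of the kleisin genes (left), the STAG genes (middle) and the SMC1 genes (right) supplied by each gene, in percent, for each of the 8 libraries. Rad21 leads the kleisins in every library, Stag3 supplies 72.6% to 79.6% of the STAG sum and Smc1b 77.8% to 86.0% of the SMC1 sum.

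*Stag3* (ENSMUSG00000036928, chromosome 5, 138280240 to 138312393), the STAG subunit shared by the meiotic complexes, had 86.5, 78.4, 106.6 and 72.0 FPKM in the controls and 79.6, 65.9, 68.2 and 65.1 FPKM in the cKO libraries. Of the cKO libraries only cKO 1 lay within the control range. The means were 85.9 ± 15.0 and 69.7 ± 6.72 FPKM (SD, n = 4 each). The log2 fold change was -0.29 (SE 0.14, 95% interval -0.60 to 0.02, limma adjusted p = 0.498). It was between -0.37 without control 4 (limma unadjusted p = 0.0246) and -0.18 without control 3 (limma unadjusted p = 0.188). *Stag1* (ENSMUSG00000037286, chromosome 9, 100597798 to 100959375), a general STAG gene, ranged from 14.6 to 23.0 FPKM in the controls and from 15.4 to 18.6 FPKM in the cKO libraries. Its log2 fold change of -0.10 (SE 0.15, limma adjusted p = 0.851) became 0.02 without control 1. *Stag2*, its X-linked paralogue, had 8.22 ± 0.961 and 7.91 ± 0.587 FPKM (SD, n = 4 each). *Stag3* thus exceeded *Stag1* by 3.76 to 5.62 times in every library.

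*Smc1b* (ENSMUSG00000022432, chromosome 15, 85064689 to 85131964), the meiotic SMC1, had 47.7, 52.5, 58.9 and 54.9 FPKM in the controls and 70.9, 46.6, 49.1 and 51.4 FPKM in the cKO libraries. The highest library, cKO 1, and the lowest, cKO 2, belonged to the same group. The means were 53.5 ± 4.70 and 54.5 ± 11.1 FPKM (SD, n = 4 each). The log2 fold change of 0.01 (SE 0.14, limma adjusted p = 0.983) had a 95% interval of -0.31 to 0.33, and it was -0.12 without cKO 1. *Smc1a*, the X-linked somatic paralogue, had 11.8 ± 1.80 and 12.0 ± 0.429 FPKM (SD, n = 4 each), and *Smc1b* exceeded it by 3.50 to 6.13 times. *Smc3* (ENSMUSG00000024974, chromosome 19, 53600398 to 53645833), the partner of both SMC1 proteins, ranged from 23.6 to 28.3 FPKM in the controls and from 25.5 to 27.4 FPKM in the cKO libraries. All cKO values of *Smc3* lay inside the control range, and its log2 fold change was 0.02 (SE 0.10, 95% interval -0.19 to 0.24, limma adjusted p = 0.954).

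The regulators included the member with the smallest p. *Nipbl* (ENSMUSG00000022141, chromosome 15, 8290617 to 8444463), which encodes the cohesin loader, had 26.4, 24.1, 32.6 and 28.9 FPKM in the controls and 23.3, 23.0, 21.3 and 21.9 FPKM in the cKO libraries. Every cKO library lay below every control. The groups failed to overlap in 1 of the 10 members, *Nipbl*, and in 6.24% of all genes tested (2.59% lower and 3.64% higher in the cKO libraries). The means were 28.0 ± 3.65 and 22.4 ± 0.928 FPKM (SD, n = 4 each), and the fitted fold was 0.804. The log2 fold change was -0.31 (SE 0.11, 95% interval -0.56 to -0.07, limma unadjusted p = 0.0165, adjusted p = 0.346), which ranked 579 by p among the 12141 genes. The exact permutation test gave p = 0.0286 (two-sided), the smallest that 4 libraries against 4 allow. The unadjusted limma p was 0.0512 without cKO 3 and 0.124 after rescaling to TPM, which gives every library the same total per unit of gene length. *Nipbl* RNA was 1.07 to 1.32 times that of *Mau2*, its loading partner, in the controls and 0.816 to 1.07 times in the cKO libraries.

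*Wapl* (ENSMUSG00000041408, chromosome 14, 34673928 to 34747983), the release factor, was the steadiest member, with its highest library 1.17 times its lowest. It ranged from 35.0 to 40.2 FPKM in the controls and from 34.3 to 37.1 FPKM in the cKO libraries. Its log2 fold change of -0.07 (SE 0.09, limma adjusted p = 0.837) became 0.01 after rescaling to TPM. *Pds5b* (ENSMUSG00000034021, chromosome 5, 150673739 to 150810690), which acts with *Wapl*, ranged from 13.9 to 18.2 FPKM in the controls and from 14.0 to 14.7 FPKM in the cKO libraries. The cKO values were tightly grouped near the lower end of the controls, with a log2 fold change of -0.15 (SE 0.10, limma adjusted p = 0.653). Its paralogue *Pds5a* had 10.3 ± 1.94 and 8.62 ± 0.291 FPKM (SD, n = 4 each) and a log2 fold change of -0.24 (SE 0.13, limma adjusted p = 0.567).

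**Figure D4:**
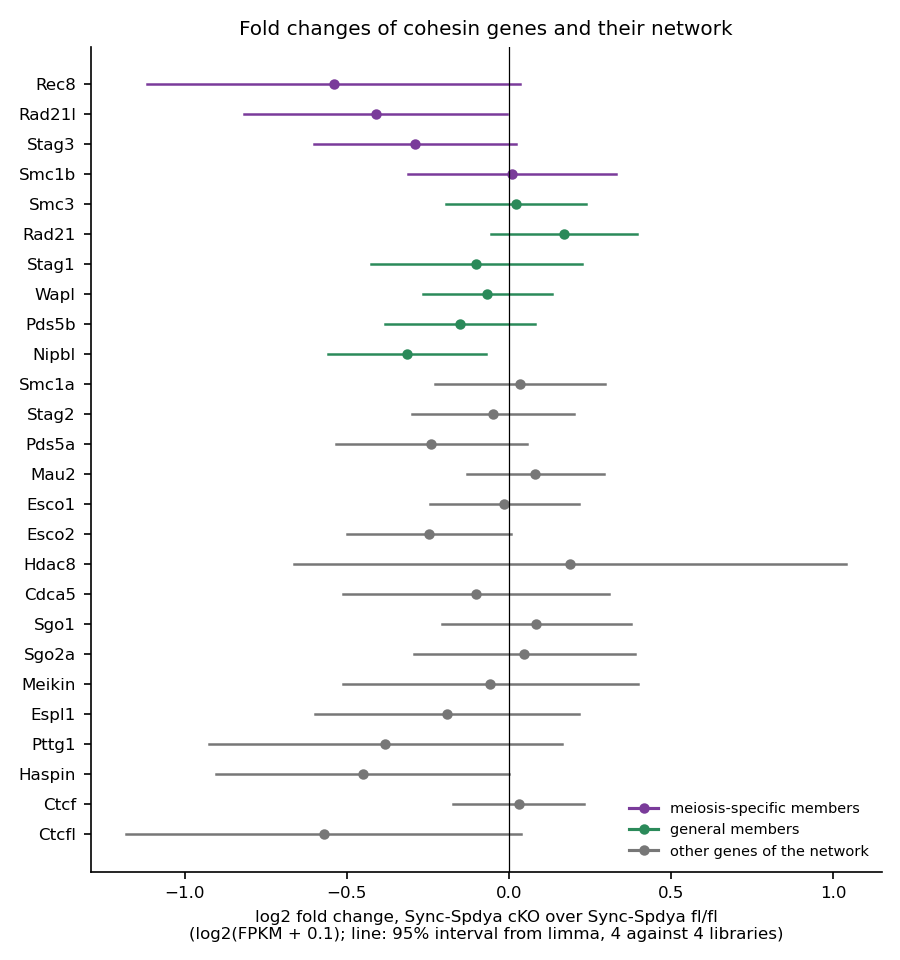
Log2 fold changes (cKO over fl/fl, points) with 95% intervals from limma (lines) for the 4 meiosis-specific members (purple), the 6 general members (green) and the 16 tested genes of the wider cohesin network (grey). The intervals of Nipbl and Rad21l end below 0, at -0.07 and -0.0045, and no other interval among these 26 genes leaves out 0.

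The 17 other genes of the network comprise paralogous subunits, partners in loading, acetylation and release, the shugoshins, separase and their partners, and the boundary factors *Ctcf* and *Ctcfl*. Of these 16 passed the FPKM filter and none had an unadjusted limma p below 0.05. Their log2 fold changes were below 0 in 10 and above 0 in 6, with a median of -0.05, and their lowest limma adjusted p was 0.462. Of the 4 other axis genes *Sycp2*, *Sycp3*, *Hormad1* and *Hormad2*, whose proteins assemble on the cohesin core, none had an unadjusted p below 0.05 and their median was -0.13.

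The meiosis-specific and general members were also set against each other within each library. The mean log2(FPKM + 0.1) of the meiosis-specific members minus that of the general members was -0.23 ± 0.20 in the controls (range -0.49 to -0.06) and -0.47 ± 0.07 in the cKO libraries (range -0.52 to -0.37; SD, n = 4 each). The ranges overlapped, and the difference between the groups of -0.23 moved between -0.32 without control 4 and -0.18 without control 3. This difference is given as a description, without a test. By library the controls had -0.09, -0.29, -0.06 and -0.49 in replicates 1 to 4, the last inside the cKO range. The 4 meiosis-specific members weighed equally, with log2 fold changes of -0.54 (*Rec8*), -0.41 (*Rad21l*), -0.29 (*Stag3*) and 0.01 (*Smc1b*). The difference was thus not shared by all 4, and *Rad21l* rested on 44 to 74 fragments per library. Among single libraries control 3 held the highest value of 5 members (*Rec8*, *Stag3*, *Smc3*, *Pds5b* and *Nipbl*) and control 2 the lowest of 3 (*Smc3*, *Stag1* and *Pds5b*).

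**Figure D5:**
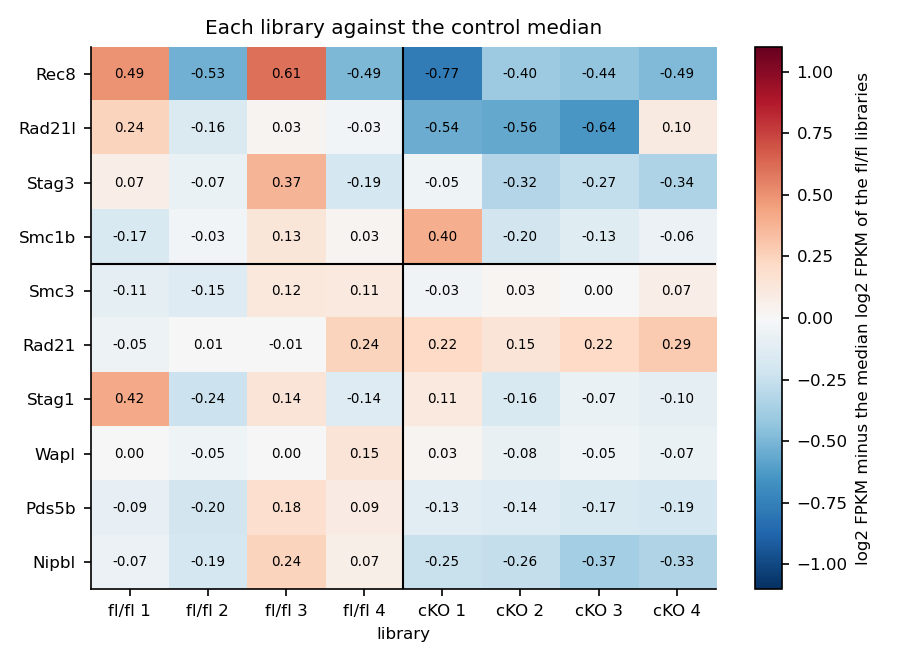
Log2 FPKM of each member in each library minus the median log2 FPKM of the 4 Sync-Spdya fl/fl libraries, with red above and blue below that median; the upper 4 rows are the meiosis-specific members. Rec8 and Rad21l range most widely, Rec8 from -0.77 in cKO 1 to 0.61 in fl/fl 3, and the Rec8, Stag3, Pds5b and Nipbl rows are below the control median in all 4 cKO libraries.

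The sequence at the start sites was a feature that the choice of genes did not use. RefSeq windows on GRCm38.p6, from 250 bases before to 50 bases after the start, were at hand for 8 of the 10 members (not *Nipbl* or *Rad21*). The E2F core TTCCCGC, searched on both strands, occurred in 3 of these 8 windows (*Stag3*, *Stag1* and *Smc1b*) and in 4.6% of 32851 windows of all genes. TTCCCGC holds a CG, and these 3 windows had 29 to 43 CG dinucleotides against a median of 7 over all windows. The shares over all windows are not matched for base composition. The E-box CACGTG occurred in *Stag3*, and in 7.15% of all windows. The X-box, the palindrome bound by RFX factors, occurred in *Smc1b*, and in 0.68% of all windows. It began 120 bases before the *Smc1b* start, beside the annotated start of *Ribc2*, a gene on the opposite strand. These motifs are shown because E2F6 and the E-box factor MGA are known to keep germ-cell genes silent in somatic cells, and because RFX factors act in spermatogenesis; each line is 30 bases with the motif in capitals, and a match is a description of letters, not a site.
Stag3, E2F core, chr5:138280495-138280524, plus strand: tatcccgtgccTTCCCGCgtttttttctaa
Stag1, E2F core, chr9:100643421-100643450, plus strand: aaaggccacgtTTCCCGCgccgctgctgcg
Smc1b, E2F core, chr15:85131987-85132016, minus strand: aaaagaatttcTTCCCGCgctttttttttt
Stag3, E-box, chr5:138280327-138280356, plus strand: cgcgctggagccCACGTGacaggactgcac
Smc1b, X-box, chr15:85132056-85132085, minus strand: caacctccGTTGCTAAGCAACggcgcctcg

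The E2F core began 3 bases before the start in *Stag3*, 16 in *Stag1* and 48 in *Smc1b*, and these genes had log2 fold changes of -0.29, -0.10 and 0.01. The MYB core CNGTTA was found in *Stag3* alone (23.3% of all windows), the STRA8 motif CNCCTCAG in *Pds5b* alone (7.94%), and CCAAT in 7 of the 8 (37.41%). In base composition *Rad21l* stood apart, with 29% G and C and 2 CG dinucleotides in its window. The other 7 members had 58.3% to 75.7% G and C and 18 to 43 CG dinucleotides, against medians of 52.7% and 7 over all windows. Of these 8, *Rad21l* was also the member with the lowest FPKM, and a link between base composition and level was not tested. GENCODE places all 250 bases before the RefSeq start of *Stag3*, 129 of *Rec8* and 88 of *Pds5b* in exons of the same gene, and its *Stag1* gene starts 45650 bases before the RefSeq start, so other start sites are annotated upstream for these genes.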

How the data were processed

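RNA was measured in 8 libraries, 1 per mouse, grouped by sample title. The labels name a column kit for RNA extraction and the study's methods Trizol. The authors deposited FPKM values for 54532 genes together with gene lengths. Per the submitters' processing notes the build was GRCm38 (mm10); the aligner, the counting tool and the use of strand are not given in the sources used here, so antisense reads may be included. The 8 files per library equalled the table. FPKM multiplied by gene length gave whole fragments for 100% of the values above 0 (tolerance 0.02); 1 fragment on a gene of 1 kilobase was worth at most 0.0763 FPKM. The authors' DESeq2 test was not run.

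limma 3.58.1 in R 4.3.3 (lmFit, then eBayes with a trend) was fitted to log2(FPKM + 0.1) for 12141 protein-coding genes whose mean FPKM was above 1 in each group, without covariates; calls needed a Benjamini-Hochberg adjusted p under 0.05 and an absolute log2 fold change over 1, thresholds taken from the study's methods. The procedure was tested on simulated fragments with equal noise for all genes and no library standing apart. That test does not show how the procedure performs with the replicate differences of these data. Named were the 10 members, *Smc1a*, *Stag2*, *Pds5a* and *Spdya*, other listed genes with an unadjusted p under 0.05, and the 5 genes most alike in pattern; other genes were named after their values were seen. The members and lists were chosen with earlier results of these data known. Replicates differed by at least 4.61 times the sampling noise per gene, with 16.4 to 108.9 for pairs of controls and 4.61 to 29.7 for pairs of cKO libraries. The alternatives tried were other pseudocounts and filters, all biotypes, centring, TPM, a replicate block, array weights, no trend, voom, and leaving out each library. Gene positions were compared with GENCODE vM21: 99.8% of genes were present, of which 98.3% had the same ends.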

Additional observations from a re-analysis of the deposited data

Results flagged for a closer look

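Of 44 groups of 4 values examined, 3 held a library far from its group (Dixon's criterion), where chance gives about 2.2. *Rad21l* was 2.63 FPKM in cKO 4 and 1.57 to 1.68 FPKM in the other cKO libraries. *Smc1b* supplied 86% of the summed *Smc1a* and *Smc1b* FPKM in cKO 1 and 79.8% to 80.4% in the other cKO libraries. Mitochondrial genes took 0.464% of the fragments of control 1 and 2.97% to 3.39% of those of the other controls.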

How the results depend on the processing

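No cohesin member reached an adjusted p below 0.05 under any alternative run. Counts over all genes depended on the fit. The genes called DE (2) and those at adjusted p below 0.05 (2) were each 0 without a filter on low values or with FPKM above 5, 4 with all biotypes, and 1 with median centring or TPM. Array weights, which gave control 1 a weight of 0.161, gave 57 and 454. The members at unadjusted p below 0.05 (2) were 1 without a filter, with FPKM above 5 (*Rad21l* not tested), with all biotypes or with median centring, and 0 with TPM. Genes at unadjusted p below 0.05 (1322) were 744 with FPKM above 5 and 2543 with array weights, and network genes (0) were 1 with a filter of 0.1 FPKM and 2 with array weights. With array weights *Smc1b* was -0.13 and *Stag2* 0.033 on the log2 scale, and with TPM *Wapl* was 0.012 and *Stag2* 0.028. Rescaling moved the median of all genes to at most 0.09.

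With each library left out in turn, each of the 2 counts of calls ran from 0 to 3 (0 without control 2 or 3 or cKO 1, 3 or 4, 1 without control 4 and 3 without cKO 2). Genes at unadjusted p below 0.05 ran from 687 without cKO 4 to 1889 without control 1, with 865 without control 3 and 799 without cKO 3. Members at unadjusted p below 0.05 ran from 0 without cKO 3 to 4 without control 4, with 1 without control 1, control 3 or cKO 2. The 4 without control 4 were *Rec8*, *Stag3* and *Nipbl*, lower in the cKO libraries, and *Rad21*, higher in them. In that fit 15.0% of all genes had an unadjusted p below 0.05. Network genes at unadjusted p below 0.05 ran from 0 to 3. Log2 fold changes that crossed 0 ran from -0.12 to 0.079 (*Smc1b*), -0.023 to 0.065 (*Smc3*), -0.19 to 0.023 (*Stag1*), -0.041 to 0.11 (*Smc1a*) and -0.12 to 0.018 (*Stag2*). Over 20 alternatives *Nipbl* stayed between -0.38 and -0.24, with p below 0.05 in 18 of 20, and *Rec8* between -0.72 and -0.35, with p below 0.05 in 2. *Rad21l* had p below 0.05 in 6 of 19 and *Stag3* in 5 of 20. The cause of these shifts was not tested.

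The groups share replicate numbers, but same-numbered libraries deviated together with correlations of only 0.0757 to 0.406, 5 of the 8 libraries correlated best with their own number, and no label ties a number to a litter. With the replicate block 0 genes were called DE and 0 reached the adjusted p, while 1777 genes, 2 members (*Stag3* and *Nipbl*) and 4 network genes had an unadjusted p below 0.05. FPKM of a gene as low as *Rad21l* is limited by its fragment count.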

Other observations

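The related SMC complexes, condensin, which compacts chromosomes, and SMC5/6, which acts in repair, were examined as a list of 15 genes. Of these 3 had an unadjusted limma p below 0.05, each lower in the cKO libraries (5.0% of all genes), none was higher, and none reached the adjusted p. The median log2 fold change was -0.08. *Ncapg*, a condensin I subunit, had 14.9, 12.0, 15.2 and 13.3 FPKM in the controls and 12.8, 9.68, 10.2 and 9.68 FPKM in the cKO libraries, with a log2 fold change of -0.39 (SE 0.12, limma adjusted p = 0.308). *Ncapg2*, its condensin II counterpart, had 12.4, 8.89, 9.45 and 9.94 FPKM in the controls and 8.54, 7.74, 8.28 and 8.38 FPKM in the cKO libraries. Its groups did not overlap, as in 6.24% of all genes (2.59% lower), and its log2 fold change was -0.29 (SE 0.12, limma adjusted p = 0.413). *Eid3*, a germ-cell subunit of SMC5/6, had 66.6, 38.0, 41.9 and 26.8 FPKM in the controls and 33.4, 25.3, 22.9 and 20.2 FPKM in the cKO libraries. Its log2 fold change was -0.72 (SE 0.25, limma adjusted p = 0.353), and -0.48 without control 1, its highest library. Of 20 alternatives only array weights, under which 454 genes passed, took it past the adjusted threshold (-0.69, limma adjusted p = 0.0373), and its unadjusted p was 0.0540 without cKO 4.

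The genes whose profile over the 8 libraries was most like the mean standardised profile of the 4 meiosis-specific members were *Tob1* (Pearson r = 0.977), *Meioc* (r = 0.940), *Kif3b* (r = 0.935), *Ston2* (r = 0.930) and *Dok3* (r = 0.928). Without control 1 these r were 0.978, 0.971, 0.928, 0.926 and 0.918. The r values are the highest of 12141 genes over few libraries, in which genes share depth and cell makeup, and are given as a description. *Meioc*, which is needed to enter and sustain meiotic prophase, had 84.0, 52.5, 81.0 and 56.3 FPKM in the controls and 58.6, 43.2, 46.2 and 46.9 FPKM in the cKO libraries. Its highest libraries, controls 1 and 3, were also those of *Rec8*, but *Meioc* was picked for its likeness to a profile that includes *Rec8*.

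*Smc1b* starts next to *Ribc2*, which runs on the opposite strand (chromosome 15 of GRCm38, 85132078 to 85144570) and whose exons cover 130 of the 250 bases before the *Smc1b* start. *Ribc2*, chosen for this position, had 13.5, 15.3, 16.0 and 11.0 FPKM in the controls and 13.7, 9.71, 10.1 and 7.49 FPKM in the cKO libraries. Its log2 fold change was -0.46 (SE 0.18, limma adjusted p = 0.413), beside 0.01 for *Smc1b*.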
